A study of Mus musculus with 16 samples.

Results

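Transcripts of the annexins Anxa1, Anxa2 and Anxa3 were followed in neutrophils sorted from blood, spleen and lung of mice with and without a microbiota. These 3 genes were chosen by their names out of the 10296 genes listed in the deposited table, each stood on 1 line, and all 3 passed the filter on low values. The cells were Ly6G-positive neutrophils of C57BL/6 mice, gated by flow cytometry on CD45, CD11b, Ly6G and DAPI, and their RNA was sequenced after amplification as complementary DNA. The mice were specific pathogen free (SPF, carrying a microbiota but no listed pathogens) or germ-free (GF, carrying no microorganisms), and no other allele, treatment or age was given. The 16 libraries comprised 2 each from GF blood and SPF blood, and 3 each from GF spleen, SPF spleen, GF lung and SPF lung. Whether the libraries of one group came from different mice is not stated, so the spread behind each p-value is that between these libraries and may be technical.

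Annexins are proteins that bind acidic phospholipids of membranes when calcium rises. Annexin A1 is an abundant cytosolic protein of neutrophils that is released on activation and, through the formyl peptide receptor Fpr2, limits further recruitment and favours the resolution of inflammation; it is induced by glucocorticoids in many cells. Annexin A2 pairs with S100a10 at the plasma membrane, where it links membranes to actin, takes part in membrane repair and binds plasminogen activators. Annexin A3 is found on neutrophil granules and has been linked to their fusion with membranes.

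A level is a normalised count, that is, the deposited value after subtraction of the 0.5 reads added to it, and group levels are means ± SD over libraries. Depth differed widely: the reads recovered per library ran from 104213 to 3033941, with medians of 2712907 (blood), 856319 (lung) and 199487 (spleen), and 5 libraries had fewer than 250000. A single read was therefore worth 0.392 to 7.62 normalised counts. Anxa1 rested on 197 to 8748 reads per library and Anxa2 on 449 to 15180, whereas Anxa3 rested on 0 to 123. Neutrophil markers were 10 symbols such as S100a8, Csf3r and Ly6g on 11 lines. None was at 0 reads in any group, and their summed level ran from 33680 to 92757. Their presence does not measure purity. Platelet and erythroid transcripts summed to 81835 to 99526 in GF blood, above the neutrophil sum there (52639 to 68284), and lay below it in each other group. Lung epithelial markers summed to 4041 to 11089 in GF lung. All libraries are bulk samples, in which fewer cells of a type and less RNA per cell cannot be told apart.

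Anxa1 (ENSMUSG00000024659) lies on chromosome 19 from 20373428 to 20390944 on the minus strand, Anxa2 (ENSMUSG00000032231) on chromosome 9 from 69453620 to 69491795 on the plus strand, and Anxa3 (ENSMUSG00000029484) on chromosome 5 from 96793339 to 96845966 on the plus strand (GENCODE M21, GRCm38, the assembly mm10). Promoter windows from RefSeq (GRCm38.p6, 250 bases before to 50 after the annotated start) matched 2 of the 3 genes. Anxa1 and Anxa2 were the genes matched, and both are shown whatever their levels. Below are 30 bases of each, 5′ to 3′ on the gene's own strand, with the letters TATAAA in capitals. The Anxa1 stretch is chr19:20390686-20390715 on the minus strand and the Anxa2 stretch chr9:69453654-69453683 on the plus strand.
Anxa1: cagttcatatccTATAAAatcaggagtcca
Anxa2: ggatggggcgggTATAAAagccccacccag
Both stretches lie inside the genes' GENCODE coordinates given above, since GENCODE also annotates transcripts that start further upstream, so positions are counted from the RefSeq start alone. The first letter of the match lay 32 bases before the RefSeq start in Anxa1 and 17 bases before it in Anxa2. Searched on both strands, TATAAA stood in 13.6% of the 32851 windows of 300 bases. The AP-1 letters TGAGTCA stood in the Anxa2 window but not in that of Anxa1, and in 5.20% of all windows. The glucocorticoid receptor half-site AGAACA stood in neither of the 2 windows, and in 18.97% of all windows. CCAAT stood in neither, and in 37.4% of all. The motifs do not overlap one another, and a match is a description of letters, not of a bound site.

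**Figure D1:**
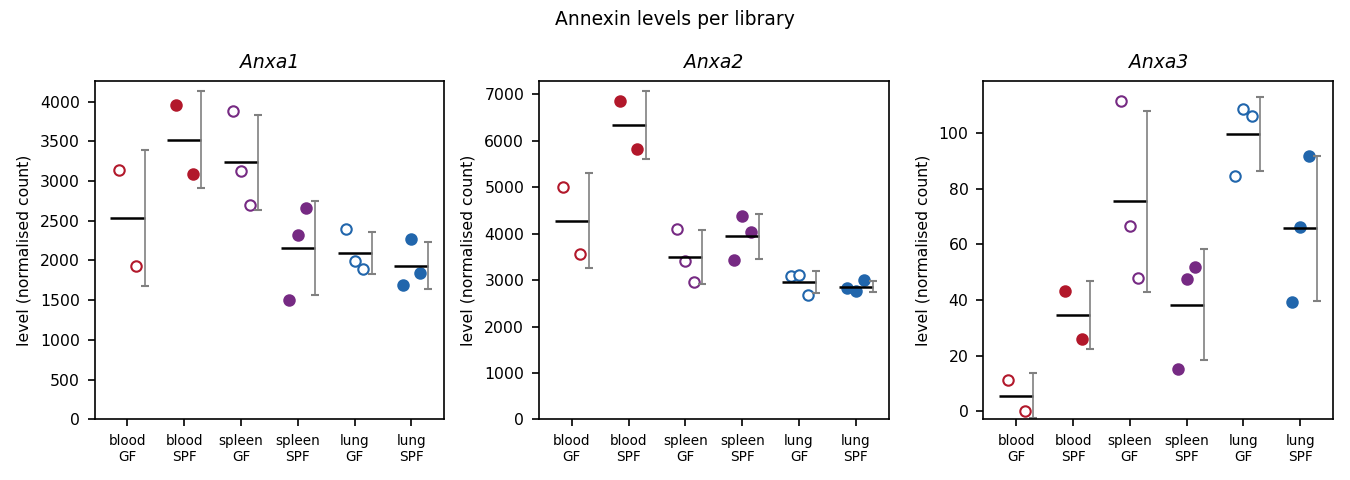
Levels of Anxa1, Anxa2 and Anxa3 (normalised counts, linear axes) in each of the 16 libraries by tissue and microbial status. Open points are GF and filled points SPF libraries, black lines are group means and grey bars 1 SD; Anxa2 runs from 6336 in SPF blood to 2861 in SPF lung, while Anxa3 runs from 5.61 in GF blood to 99.8 in GF lung.

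Anxa2 was most abundant in blood neutrophils and least abundant in lung neutrophils. In SPF blood it measured 6856 in replicate 3 and 5815 in replicate 4, and in SPF lung 2828, 2756 and 3000 in replicates 1, 2 and 3. Both blood libraries stood far above the 3 lung libraries, at means of 6336 ± 736 (SD, n = 2) and 2861 ± 125 (SD, n = 3). The log2 difference was -1.14 (SE 0.18, limma, adjusted p = 2.78e-05). After quantile rescaling, under which the all-gene median turned from 0.16 to -0.10, it was -0.43 (adjusted p = 0.0517), and it passed in each of the 27 other settings tried. SPF spleen lay between, with 3422, 4383 and 4035 in replicates 1, 2 and 4 (3947 ± 486), and its 3 libraries overlapped with neither SPF blood nor SPF lung.

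The fall from SPF blood to SPF spleen passed (-0.68, adjusted p = 0.020). Lung minus spleen in SPF mice did not pass (-0.46, adjusted p = 0.0761). It passed with array weights (-0.54), after quantile (-0.63) or median-ratio rescaling (-0.50), on the 11 libraries of at least 250000 reads (-0.62), and without spleen SPF replicate 1 (-0.56). The spleen call was lost without blood SPF replicate 3 (-0.57), blood SPF replicate 4 (-0.80) or spleen SPF replicate 1 (-0.59), and after quantile rescaling the value was 0.19, of the other sign.

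In GF mice the order of the tissues was the same but the steps were smaller. GF blood measured 4997 in replicate 2 and 3556 in replicate 3, GF spleen 4108, 3407 and 2961 in replicates 1, 3 and 4, and GF lung 3079, 3104 and 2675 in replicates 2, 3 and 4. Blood lay above lung without overlap, and spleen overlapped with both. Lung minus blood was -0.52 (SE 0.18, adjusted p = 0.0682), lung minus spleen -0.23 (adjusted p = 0.439) and spleen minus blood -0.28 (adjusted p = 0.552). Without blood GF replicate 3, a library of 132798 reads, lung minus blood was -0.76 and passed (adjusted p = 0.025); it also passed without spleen SPF replicate 1 (-0.52, adjusted p = 0.0404) and with voom weights (-0.62, adjusted p = 0.00986).

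Whether the lung and blood difference of Anxa2 itself differed between GF and SPF mice was tested as an interaction, which did not pass (0.63, 95% interval 0.10 to 1.15 before adjustment, adjusted p = 0.563). As a share of all reads recovered, Anxa2 took 0.509% ± 0.0282 (SD, n = 2) of SPF blood, 0.438% ± 0.0188 (SD, n = 3) of SPF spleen and 0.288% ± 0.0268 (SD, n = 3) of SPF lung libraries. The shares in GF mice were 0.390% ± 0.0401 (SD, n = 2), 0.371% ± 0.0392 (SD, n = 3) and 0.301% ± 0.0154 (SD, n = 3). The decline from blood to lung stood in the share of reads as well as in the scaled level. A share is itself a scaling, by total reads, and depends on what else a library holds, so it is not an independent check.

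Anxa1 was also lower in lung than in blood of SPF mice, and its level in GF spleen stood next to that of SPF blood. SPF blood measured 3951 and 3085 in replicates 3 and 4, and SPF lung 1689, 2265 and 1846 in replicates 1, 2 and 3. No lung library reached the lower blood library. The means were 3518 ± 612 (SD, n = 2) and 1933 ± 298 (SD, n = 3), a log2 difference of -0.86 (SE 0.23, adjusted p = 0.00825). The call was lost without blood SPF replicate 3 (-0.68, adjusted p = 0.172) and after quantile rescaling (-0.47, adjusted p = 0.0805).

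In GF mice the same comparison did not pass (-0.24, 95% interval -0.72 to 0.23, adjusted p = 0.603). GF blood measured 3143 in replicate 2 and 1926 in replicate 3, a spread that enclosed 2 of the 3 GF lung libraries (2393, 1993 and 1892 in replicates 2, 3 and 4). Without blood GF replicate 2 the value was 0.11, of the other sign. GF spleen measured 3881, 3128 and 2703 in replicates 1, 3 and 4, and every one of these stood above every GF lung library. Lung minus spleen in GF mice was -0.62 (SE 0.21, adjusted p = 0.0535).

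That call lay at the threshold and passed under 6 other settings, among them voom weights (-0.62, adjusted p = 0.0424), and without any one of 5 libraries: blood GF replicate 2 or 3, spleen GF replicate 4 (-0.74), or spleen SPF replicate 1 or 4 (-0.62 without each of the other 4). SPF spleen measured 1502, 2317 and 2657 in replicates 1, 2 and 4, from below to above the range of the SPF lung libraries. Lung minus spleen in SPF mice was -0.13 (adjusted p = 0.80), and 0.04 without spleen SPF replicate 4. Spleen minus blood was 0.38 in GF (adjusted p = 0.531) and -0.73 in SPF mice (adjusted p = 0.0521). The SPF value passed without blood GF replicate 2 or 3, spleen GF replicate 1 (each -0.73) or spleen SPF replicate 4 (-0.90). The difference between these 2 effects was 1.11 (95% interval 0.44 to 1.78 before adjustment, adjusted p = 0.104), which did not pass; without blood GF replicate 2 it was 1.46 and without spleen SPF replicate 4 it was 1.28, and both passed (adjusted p = 0.0302 and 0.0436).

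Ordered by mean level, Anxa1 ran from SPF blood through GF spleen (3237 ± 596), GF blood (2535 ± 861), SPF spleen (2159 ± 594) and GF lung (2093 ± 265) to SPF lung. The libraries of every pair of neighbours in that order overlapped. In the order of Anxa2 (SPF blood, GF blood at 4276 ± 1019, SPF spleen, GF spleen at 3492 ± 578, GF lung at 2953 ± 241, SPF lung) SPF blood alone stood apart from its neighbour. Per kilobase of exon (union of the exons of protein-coding transcripts, 1893 bases for Anxa1, 1748 for Anxa2 and 2788 for Anxa3), the level in SPF blood was 3624 ± 421 for Anxa2, 1859 ± 323 for Anxa1 and 12.4 ± 4.43 for Anxa3. In GF lung these levels per kilobase were 1689 ± 138, 1105 ± 140 and 35.8 ± 4.77. On this scale Anxa3 was by far the scarcest of the 3 transcripts in each of the 6 groups.

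Anxa3 ran the other way: it was scarce in GF blood and higher in GF lung and GF spleen. GF blood measured 11.2 in replicate 2, from 24 reads, and 0 in replicate 3, where no read was found. The exact 95% binomial interval of replicate 2 was 7.19 to 16.7 normalised counts. For replicate 3, with 0 of 132798 reads, it was 0 to 27.3, and a floor of 3 reads stood at 22.2 there. Intervals and floors cover counting error only, since the reads carry no molecular identifiers. GF lung measured 84.5, 109 and 106 in replicates 2, 3 and 4, from 70 to 123 reads, so the least of them was more than the upper limits of both blood libraries.

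The means were 99.8 ± 13.3 (SD, n = 3) in GF lung and 5.61 ± 7.94 (SD, n = 2) in GF blood, and the log2 difference was 3.72 (SE 0.48, adjusted p = 1.2e-06). GF spleen measured 112, 66.7 and 48.1 in replicates 1, 3 and 4, from 22, 27 and 8 reads, and lay above GF blood by 3.28 (SE 0.48, adjusted p = 9.77e-05). The size of both differences rests on which GF blood library is used. Without replicate 3 they were 3.02 and 2.58, and without replicate 2 they were 4.42 and 3.99. Both calls held in each of the 28 other settings, with adjusted p from 3.61e-08 to 0.000758 for lung and from 6.41e-06 to 0.0421 for spleen.

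In SPF mice no tissue difference of Anxa3 passed. SPF blood measured 43.4 and 25.9 in replicates 3 and 4, SPF spleen 15.2, 47.7 and 51.7 in replicates 1, 2 and 4, and SPF lung 39.4, 66.4 and 91.6 in replicates 1, 2 and 3. The 3 groups overlapped, and the lowest spleen library rested on 2 reads (exact interval 1.85 to 55.1 normalised counts). Lung minus blood was 0.88 (95% interval -0.10 to 1.86, adjusted p = 0.214), lung minus spleen 0.75 (adjusted p = 0.335) and spleen minus blood 0.13 (adjusted p = 0.898). The last turned to the other sign without blood SPF replicate 4 (-0.23) or spleen SPF replicate 2 (-0.064) or 4 (-0.14). With voom weights, which give shallow libraries less weight, SPF lung minus blood was 0.99 and passed (adjusted p = 0.0101), and it passed as well without the 5 libraries under 250000 reads (0.88, adjusted p = 0.0409). Lung and spleen of GF mice did not differ beyond their spread either (0.44, adjusted p = 0.616). By mean level the order was GF lung, GF spleen (75.4 ± 32.7), SPF lung (65.8 ± 26.1), SPF spleen (38.2 ± 20.0), SPF blood (34.6 ± 12.4) and GF blood. In measured levels only GF blood stood apart from its neighbour. The exact interval of its library with 0 reads (0 to 27.3) still reached the 25.9 of SPF blood replicate 4.

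**Figure D2:**
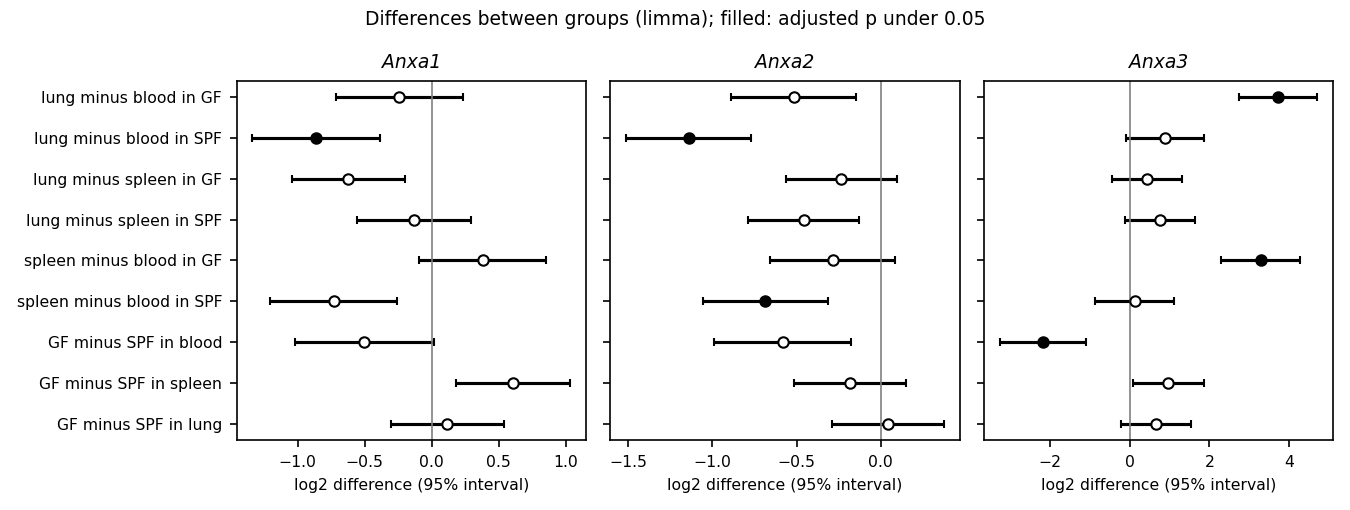
Log2 differences of Anxa1, Anxa2 and Anxa3 in 9 comparisons of 2 groups, with unadjusted 95% intervals from limma; filled points passed at an adjusted p under 0.05. Anxa1 and Anxa2 lie to the left of 0 in lung minus blood, at -0.86 and -1.14 in SPF mice, and Anxa3 lies to the right, at 3.72 in GF mice.

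Set against all 8299 genes tested, the members' calls read as follows. In lung minus blood 1 of 3 members passed in GF mice, where 9.80% of all genes did, and 2 of 3 in SPF mice, where 19.1% did. In spleen minus blood 1 of 3 passed in GF mice against 0.880% of all genes, and 1 of 3 in SPF mice against 7.06%. In lung minus spleen 0 of 3 passed in limma in GF and in SPF mice, against 10.2% and 9.66% of all genes. At an unadjusted p under 0.05 the number was 1 in each, and with voom weights 1 in GF and 0 in SPF mice. The comparisons of one tissue with the other two share libraries and are not independent of each other.

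The microbial status of the mouse was compared within each tissue. In blood Anxa3 was lower in GF than in SPF libraries, 11.2 and 0 against 43.4 and 25.9. These levels did not overlap, though the exact counting interval of the GF library with 0 reads (0 to 27.3) reached 25.9. The log2 difference was -2.18 (SE 0.53, limma, adjusted p = 0.0316). That call was lost without blood GF replicate 3 (-1.48, adjusted p = 0.533), blood SPF replicate 3 (-1.82) or blood SPF replicate 4 (-2.54). Anxa2 was at 4276 ± 1019 in GF and 6336 ± 736 in SPF blood (-0.58, adjusted p = 0.129), and passed without blood GF replicate 2 (-0.83, adjusted p = 0.0418). Anxa1 gave -0.50 (adjusted p = 0.325). All 3 values were below 0, and 1 of 3 passed where 1.33% of all genes did.

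In spleen and lung no member passed between GF and SPF mice. In spleen Anxa1 was at 3237 ± 596 in GF and 2159 ± 594 in SPF mice, and the 3 GF libraries (2703 to 3881) lay above the 3 SPF libraries (1502 to 2657), a log2 difference of 0.61 (95% interval 0.18 to 1.03 before adjustment, adjusted p = 0.202). Anxa3 gave 0.97 (adjusted p = 0.342) and Anxa2 -0.18 (adjusted p = 0.707). In lung the values were 0.12, 0.04 and 0.65 for Anxa1, Anxa2 and Anxa3 (adjusted p = 0.999 for each), with 95% intervals of -0.31 to 0.54, -0.29 to 0.38 and -0.22 to 1.53. Over all genes 0.325% passed in spleen and 0.0241% in lung, and of the members 0 of 3 passed in limma in either. At an unadjusted p under 0.05 the counts were 2 and 0, and with voom weights 0 and 0.

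For Anxa3 an interaction of tissue with microbial status passed. The spleen minus blood difference was 3.28 in GF and 0.13 in SPF mice, and the interaction of 3.16 passed (SE 0.68, adjusted p = 0.0264, 1 of 3 members against 0.759% of all genes). It was lost without blood GF replicate 3 (2.45), blood SPF replicate 3 (2.80), spleen GF replicate 1 (2.84) or 3 (3.21) or spleen SPF replicate 2 (3.35), and with voom weights (2.59, adjusted p = 0.0513). The interaction for lung minus blood was 2.84 (adjusted p = 0.154) and did not pass, except without blood GF replicate 2 (3.54) or spleen SPF replicate 1 (2.84), and with voom (2.38, adjusted p = 0.0453) or array weights (2.80). For lung minus spleen the interactions of the 3 members lay between -0.49 and 0.22 (adjusted p = 0.817 to 0.952), and that of Anxa3 turned from -0.32 to 0.14 without spleen SPF replicate 1. In these last 2 interactions 0 of 3 members passed in limma, against 0.0120% of all genes in each, with 2 and 0 members at an unadjusted p under 0.05 and 1 and 0 with voom weights.

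Ratios of the members within a library were compared as log2 ratios of deposited values each raised by 1. For the abundant Anxa1 and Anxa2 the scaling between libraries nearly cancels, but for Anxa3 the offset of 0.5 reads and the added 1 weigh on the ratio. In blood GF replicate 3, with 0 reads of Anxa3, the deposited value of 3.70 is the offset alone. The ratio of Anxa3 to Anxa2 was higher in lung than in blood by 4.24 in GF and 2.02 in SPF mice. Over both statuses the mean difference was 3.13 (exact permutation test within status, two-sided, p = 0.01, adjusted p = 0.024 over 12 tests). It was also higher in lung than in spleen by 0.94 (exact p = 0.01, adjusted p = 0.024) and in spleen than in blood by 2.19 (exact p = 0.02, adjusted p = 0.040). For Anxa3 to Anxa1 the differences were 2.85, 0.97 and 1.88 (exact p = 0.01, 0.005 and 0.01, adjusted p = 0.024 each). The smallest possible p is 0.01 with the 100 rearrangements of a blood contrast and 0.005 with the 400 of lung minus spleen. The lung minus spleen p of 0.01 for Anxa3 to Anxa2 thus lay above that limit. With a library of a contrast left out fewer rearrangements remain and the smallest possible p rises. A call lost in this way can reflect that limit of the test. All 6 differences were at or above an adjusted p of 0.05 without blood GF replicate 2 or 3 or blood SPF replicate 4, where they ran from 0.94 to 3.36. The adjustment over 12 tests moved too, so that the lung minus spleen values stayed at 0.97 and 0.94 while their adjusted p rose. Those of spleen minus blood also were so without any GF spleen library (1.79 to 2.26), for Anxa2 without spleen SPF replicate 2 or 4 too (2.13 and 2.06), and that of Anxa3 to Anxa2 in lung minus spleen without spleen GF replicate 4 (0.87). In levels, Anxa3 stood at 0.0275 to 0.0396 of Anxa2 in the GF lung libraries and at 0 and 0.00225 of it in GF blood.

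The ratio of Anxa1 to Anxa2 set GF spleen apart. It was 0.945, 0.918 and 0.913 in GF spleen replicates 1, 3 and 4, against 0.439, 0.529 and 0.658 in SPF spleen replicates 1, 2 and 4. The 2 blood groups ran from 0.531 to 0.629 and the 2 lung groups from 0.597 to 0.822, so that no library outside GF spleen reached its lowest value. Averaged over the tissues, the ratio was higher in GF than in SPF mice by 0.31 on the log2 scale (exact permutation test within tissue, p = 0.0233, adjusted p = 0.040), made up of 0.79 in spleen, 0.08 in blood and 0.07 in lung. Whether these 3 differ from one another was not tested. The ratio was higher in lung than in blood by 0.28 (exact p = 0.03, adjusted p = 0.045), to the same extent in GF (0.28) and SPF mice (0.28), while lung against spleen gave -0.03 (exact p = 0.85). The lung and blood difference reached an adjusted p of 0.05 or more without any one library except spleen SPF replicate 1 (0.20 to 0.33). Without a spleen library its value stayed at 0.28, and only the adjustment over the other tests moved. Without a blood or lung library fewer rearrangements remained. The GF and SPF difference did so without any one of 9 libraries, both GF blood and all GF spleen libraries among them (0.28 to 0.35).

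**Figure D3:**
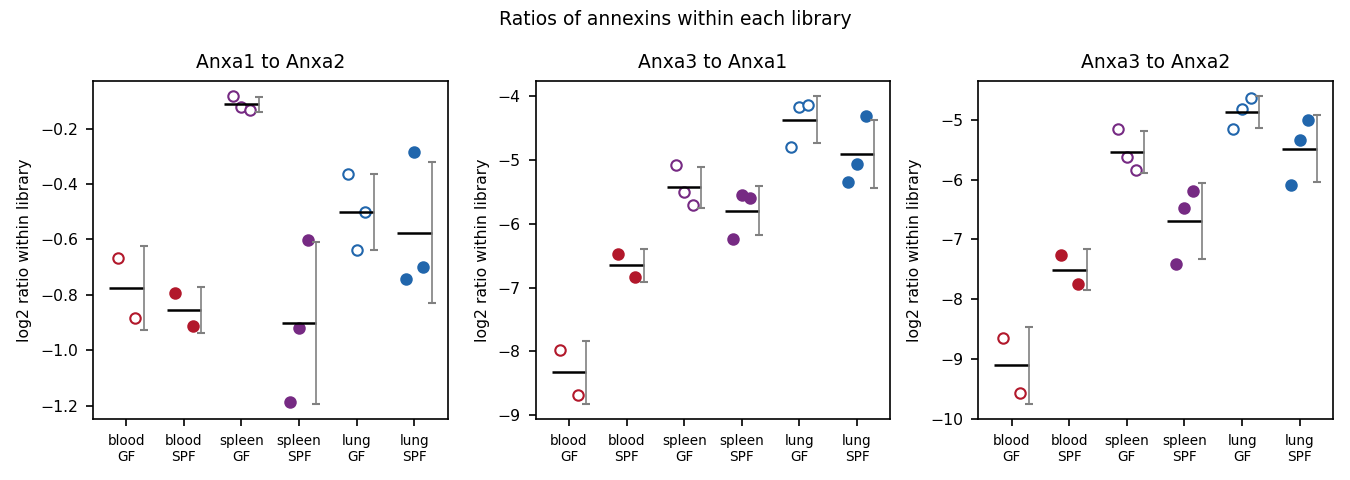
Log2 ratios of pairs of annexins within each library (deposited value + 1), by tissue and microbial status, with group means (black) and 1 SD (grey); open points are GF and filled points SPF libraries. The Anxa1 to Anxa2 ratio of the 3 GF spleen libraries lies above that of every other library, and the Anxa3 to Anxa2 ratio is lowest in the 2 GF blood libraries.

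Other transcripts differed between the tissues alongside the annexins. Over all genes 9.80% (GF) and 19.1% (SPF) passed in lung minus blood, and 10.2% and 9.66% in lung minus spleen. Of 10 lung epithelial markers 7 were listed, and all 7 passed as higher in lung than in blood and in spleen, in GF and in SPF mice. Their summed level was 4041 to 11089 in GF lung and 2712 to 5458 in SPF lung, against 17.9 to 51.9 in the blood and spleen libraries, where Sftpd was at 0 reads in GF blood and Sftpa1, Sftpd and Sftpb in both spleen groups. The 6 endothelial markers listed summed to 743 to 1325 in GF lung and 481 to 706 in SPF lung, against 7.41 to 38.1 elsewhere, where Ramp2, Egfl7, Cldn5 and Kdr were at 0 reads in both spleen groups. The 4 stromal markers of 7 summed to 309 to 661 in lung and 0 to 10.1 elsewhere. Their part in the higher Anxa3 of GF lung was not tested. In GF spleen against GF blood 0 of 7 epithelial and 0 of 6 endothelial markers passed in limma, against 0.880% of all genes. The counts were also 0 at an unadjusted p under 0.05 and with voom weights. The sums in GF spleen were 22.2 to 50.7 and 10.1 to 24.0. The part of these markers in the Anxa3 level of GF spleen was not tested either.

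Granule transcripts of late neutrophil precursors, among them Ltf, Camp and Ngp, moved with spleen. The 7 genes summed to 17771 to 44321 in GF spleen and 10976 to 15984 in SPF spleen, against 2254 to 6003 in the blood and lung libraries, and none was at 0 reads in any group. Of the 7, 3 passed as higher in GF spleen than in GF blood and 5 in SPF spleen than in SPF blood. Over all genes 0.880% and 7.06% passed in these 2 comparisons. Macrophage and monocyte markers (10 of 12 listed) summed to 1516 to 1778 in GF spleen, 1383 to 1718 in SPF spleen, 1267 to 1885 in GF blood, 1298 to 1305 in SPF blood and 1105 to 1274 in lung. Mertk and C1qb were at 0 reads in both blood groups, and C1qa and C1qc in SPF blood as well. Of the 9 macrophage and monocyte markers tested, 5 passed in SPF lung against SPF blood (4 higher, 1 lower, median 2.30) and 3 in GF lung against GF blood (2 higher, 1 lower). In SPF spleen against SPF blood 6 passed (5 higher, 1 lower, median 1.75), and in GF spleen against GF blood 1 passed as higher. For lung minus blood the shares over all genes were 19.1% (SPF) and 9.80% (GF), and for spleen minus blood those just given. The part of granule and macrophage transcripts in the lung and spleen values of the 3 annexins was not tested.

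Neutrophil markers summed to 77652 to 92757 in SPF blood, above every library of lung (33680 to 57325) and spleen (36345 to 73332). GF blood, at 52639 to 68284, overlapped with both tissues. Of the 11 neutrophil marker lines, 5 passed as lower and 3 as higher in SPF lung than in SPF blood, against 19.1% of all genes. The median log2 difference of the 11 lines was -1.09, beside -1.14 for Anxa2, -0.86 for Anxa1 and a median of 0.16 over all genes. Platelet and erythroid transcripts (9 of 10 listed) summed to 44309 to 99526 in blood, 47.8 to 2080 in lung and 48.1 to 21992 in spleen, where Itga2b was at 0 reads in GF mice. The part of either list in the differences of Anxa1, Anxa2 and Anxa3 from blood was not tested. T and NK cell markers (2 of 6 listed) summed to 0 to 16.7 over all libraries, and none of 4 dendritic cell markers was listed.

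B cell markers (5 of 6 listed) also moved with lung against SPF blood, where 4 of 5 passed as higher, with a median log2 difference of 2.79 beside 0.16 over all genes. In GF lung against GF blood 1 of 5 passed as higher, in SPF lung against SPF spleen 2 of 5, and in SPF spleen against SPF blood 1 of 5. Over all genes 19.1% passed in the first of these 4 comparisons, and 9.80%, 9.66% and 7.06% in the others. The summed level of the B cell markers did not follow their counts, at 624 to 679 in SPF blood and 465 to 652 in SPF lung. The part of B cell markers in the differences of Anxa1 and Anxa2 was not tested.

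Among the other annexins, Anxa4 and Anxa5 passed as higher in lung than in blood. Of 9 other family members 6 were listed and 5 tested (Anxa4, Anxa5, Anxa6, Anxa7 and Anxa11). In lung minus blood 2 of 5 passed in GF and 2 of 5 in SPF mice, where 9.80% and 19.1% of all genes did. The median difference of the 5 was 0.43 and 1.06, beside 0.15 and 0.16 over all genes. Anxa4, which is expressed in many epithelia, measured 41.9 ± 13.1 in GF lung and 1.17 ± 1.65 in GF blood, from 5 reads (3.36, adjusted p = 0.000729). In SPF mice it measured 23.1 ± 14.5 in lung, and 1 read was found in both blood libraries together (3.98, adjusted p = 6.34e-05, a size that depends on the pseudocount). Anxa5, which binds phosphatidylserine on dying cells, was at 142 ± 24.1 in GF lung and 49.6 ± 7.26 in GF blood (1.44, adjusted p = 0.00827), and was higher by 1.29 in SPF mice (adjusted p = 0.0123). The Anxa5 calls were lost without blood GF replicate 3 (1.35) in GF mice, and without blood SPF replicate 4 (0.89) or lung SPF replicate 3 (1.03) in SPF mice. A plain prior (1.29) and a fixed replicate block (1.06) also ended the SPF call. The Anxa4 calls passed in each of 27 other settings. The epithelial and endothelial sums given above were also higher in lung, and their part in the Anxa4 and Anxa5 differences was not tested.

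Against spleen, 1 of the 5 passed in GF lung (Anxa4, 3.17), against 10.2% of all genes. In SPF lung 3 passed (Anxa11 at 1.23, Anxa5 at 1.05 and Anxa4 at 1.92), against 9.66% of all genes. Each of the 3 SPF calls was lost without lung SPF replicate 2 or 3 (Anxa11 1.13 and 1.03, Anxa5 1.09 and 0.79, Anxa4 1.90 and 1.49) and without at least 1 SPF spleen library. Anxa11 passed in 22 of 28 other settings, Anxa5 in 20 of 28 and Anxa4 in 20 of 27. Voom weights ended the Anxa5 call (0.95), and pseudocount 0.1 that of Anxa4 (2.14). Anxa11 overlaps an antisense gene, and the counting is not stated to use strand. None of the 5 passed in limma in spleen minus blood or between GF and SPF mice in any tissue. Over all genes 0.880% (GF) and 7.06% (SPF) passed in spleen minus blood. For status the shares were 1.33%, 0.325% and 0.0241% in blood, spleen and lung. At an unadjusted p under 0.05 the counts among the 5 were 2 in GF and 1 in SPF mice for spleen minus blood. For status they were 1, 2 and 0 in blood, spleen and lung, and with voom weights each of these counts was 0. Anxa6 and Anxa7 passed in no comparison of 2 groups, with levels of 157 to 244 and 48.1 to 81.6 as group means.

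The S100 partners fell into separate patterns. S100a11, the partner of annexin A1, measured 6119 and 6615 in SPF blood and 1984 to 3487 in SPF lung (-1.31, adjusted p = 0.0477), and S100a6, another annexin-binding S100 protein, was lower by 1.65 in the same comparison (adjusted p = 0.0209). Without blood SPF replicate 3 or 4 the calls of S100a11 (-1.25 and -1.37) and S100a6 (-1.49 and -1.81) were lost, as they were without lung SPF replicate 2 or 3 (S100a11 -1.27 and -1.12, S100a6 -1.62 and -1.42). The S100a11 call also ended without any one of 4 libraries outside the comparison. It held in 15 of 28 other settings. Quantile rescaling (-0.63), median-ratio rescaling (-1.20) and a fixed replicate block (-1.32) were among those that ended it. The S100a6 call held in 22 of 28, and was also lost after quantile rescaling (-1.33). In GF mice S100a11 gave -0.65 (adjusted p = 0.42) and S100a6 -0.88 (adjusted p = 0.28). S100a10, the partner of annexin A2, was scarce, at 24.3 ± 4.44 in GF lung and 5.29 ± 4.98 in GF spleen, from 5 reads in all (1.77, adjusted p = 0.0455). In SPF mice it was at 19.8 ± 12.8 in lung, and 2 reads were found in the 3 spleen libraries together (2.11, adjusted p = 0.0142, a size that depends on the pseudocount). The GF call was lost without any one of 8 libraries (lowest 1.22, without spleen GF replicate 1). It held in 13 of 27 other settings. Voom weights (1.86), array weights (1.59), pseudocount 0.1 (1.94), quantile rescaling (1.56) and a fixed replicate block (1.48) also ended it. The SPF call held in 23 of 27, and was lost without spleen SPF replicate 4 (1.94) or lung SPF replicate 2 (1.92) or 3 (1.69). Against blood S100a10 gave 0.30 in GF and 0.44 in SPF mice (adjusted p = 0.84 and 0.70). Of the 3 S100 genes tested, 2 passed in lung minus blood in SPF mice and 1 in each lung minus spleen comparison. Over all genes 19.1% passed in the former, and 10.2% (GF) and 9.66% (SPF) in the latter.

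Of the receptors of annexin A1, Fpr2 was lower in SPF lung and SPF spleen than in SPF blood. It measured 207 and 247 in SPF blood, 90.9 to 134 in SPF lung (-0.93, adjusted p = 0.0208) and 83.8 to 132 in SPF spleen (-0.99, adjusted p = 0.0333), with no overlap. Both calls were lost without blood SPF replicate 3 (-0.81 and -0.86) or 4 (-1.06 and -1.11). The first was also lost without lung SPF replicate 2 (-0.75), and the second without spleen SPF replicate 1 (-0.80). The lung call held in 24 of 28 other settings and the spleen call in 20 of 28. Quantile (-0.84) and median-ratio rescaling (-0.83) ended the spleen call too. In GF mice Fpr2 gave -0.33 and -0.17 (adjusted p = 0.56 and 0.86), at 123 ± 6.11 in blood, 99.3 ± 13.4 in lung and 109 ± 18.4 in spleen. Fpr1, which binds bacterial formyl peptides, passed in no comparison of 2 groups, with group means of 377 to 594. Trpm7, a channel kinase that phosphorylates annexin A1, was higher in GF lung than in GF spleen (1.77, adjusted p = 0.0203), where it rested on 9 reads. It was no longer called without spleen GF replicate 4 (1.03) or lung GF replicate 2 (1.74) or 4 (1.63), or with a plain prior (1.77). Pla2g4a, the cytosolic phospholipase that annexin A1 inhibits, passed in none.

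Ahnak and Plaur were the partner genes of annexin A2 that stood highest in lung. Ahnak is a giant scaffold protein that annexin A2 and S100a10 bring to the membrane. It measured 61.1 to 86.9 in GF lung and 1.87 ± 2.65 in GF blood, from 8 reads (3.96, adjusted p = 4.14e-05). Lung minus blood was 3.83 in SPF mice, and lung minus spleen 2.27 in GF and 2.79 in SPF mice. The GF spleen value was not called without spleen GF replicate 3 (1.72). SPF blood held 9 reads, GF spleen 9 and SPF spleen 4, so these sizes depend on the pseudocount. Plaur, the urokinase receptor, measured 1672 ± 218 in GF lung, 420 ± 123 in GF blood and 419 ± 53.1 in GF spleen (2.004 and 1.99, adjusted p = 3.26e-06 and 5.33e-07). In SPF mice it was higher in lung by 1.44 against blood and by 2.57 against spleen. Its spleen minus blood difference there was -1.12 (adjusted p = 0.0109). That call held in 23 of 28 other settings. It was lost without blood SPF replicate 3 (-0.84) or spleen SPF replicate 1 (-0.78), and after quantile rescaling (-0.81). The lung calls of Plaur passed in each of 28 other settings, and the lung minus blood calls of Ahnak in each of 27. The epithelial, endothelial and stromal sums given above were also higher in lung, and their part in the Ahnak and Plaur differences was not tested. Plaur was the single gene tested of 4 of the plasminogen system. Nr3c1, the glucocorticoid receptor, passed in no comparison of 2 groups (group means 189 to 214), and of its 3 targets Tsc22d3 fell by 2.01 in SPF lung against SPF blood (adjusted p = 0.0123, lost without blood SPF replicate 3 at -1.89 or 4 at -2.13), while Fkbp5 and Dusp1 passed in none. Fkbp5, from 12 to 88 reads per group, still stood higher in GF than in SPF mice without overlap. It measured 22.2 to 36.5 against 3.61 to 10.6 in blood and 37.0 to 66.1 against 0 to 18.8 in spleen. In lung it measured 25.7 to 47.1 against 1.97 to 14.6. In limma 0 of the 4 genes passed between GF and SPF mice in blood, spleen or lung. Over all genes 1.33%, 0.325% and 0.0241% did. At an unadjusted p under 0.05 the count was 1 of 4 in each tissue, a limit for which no share over all genes is given here. With voom weights 1, 0 and 0 of the 4 passed in blood, spleen and lung, where 842, 3 and 6 of the 8299 genes did.

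**Figure D4:**
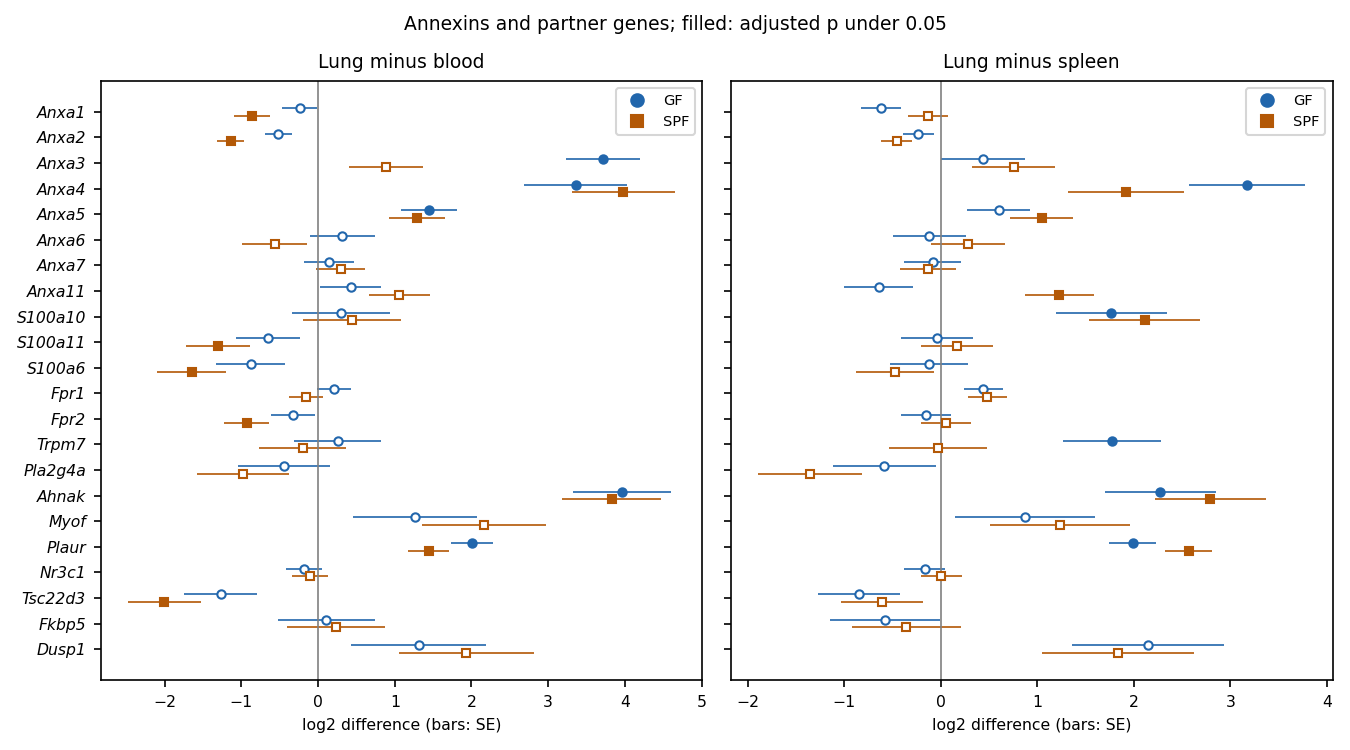
Log2 differences with SE of the 3 annexins, the other annexins and partner genes, in lung minus blood and lung minus spleen; circles are GF and squares SPF mice, and filled symbols passed at an adjusted p under 0.05. Anxa4, Ahnak and Plaur lie to the right in all 4 comparisons, at 1.44 to 3.98, while Anxa1 and Anxa2 lie at or to the left of -0.13.

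The genes whose pattern over the 16 libraries was most like each member were ranked by Pearson correlation of log2(value + 1), among 2467 tested genes with a mean value of at least 50. These correlations are descriptions: the points share tissue, status and depth. For Anxa1 the highest was Ldha, a lactate dehydrogenase subunit (r = 0.93, n = 16), followed by Tuba4a, Glrx, Mapk13 and B9d2 (0.86 to 0.88). Plekho2 was the most opposite (-0.87), then Zmynd11 and Spata13. For Anxa2 the highest were the actin-binding coronin Coro1a, Sh3bgrl3, Bin3, haptoglobin (Hp) and the translation regulator Eif4ebp1 (0.95 each), and the most opposite were Trp53inp2, Pmaip1 and Myo1c (-0.93 to -0.91). Coro1a measured 5641 ± 531 in SPF blood and 2822 ± 112 in SPF lung.

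For Anxa3 the list held 4 mitochondrially encoded genes, mt-Nd1 (0.85), mt-Co3, mt-Atp6 and mt-Cytb (0.76 to 0.84), and the transcription factor Foxp1 (0.85). mt-Nd1 measured 593 ± 235 in GF lung, 337 ± 74.0 in SPF lung, 86.0 ± 33.1 in GF spleen and 7.72 ± 10.9 in GF blood. Its SD in GF blood exceeded its mean, and Anxa3 had 0 reads in blood GF replicate 3. Values near the floor thus enter this correlation. The most opposite were Vsig10l, Mctp1 and Flcn (-0.85 to -0.80). Among the members the correlation was 0.69 for Anxa1 with Anxa2, 0.11 for Anxa1 with Anxa3 and -0.33 for Anxa2 with Anxa3. With log2 depth it was 0.33, 0.46 and 0.13 for Anxa1, Anxa2 and Anxa3.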

How the data were processed

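Per the labels' protocols, cDNA was made with a low-input amplification kit and read as paired ends. CASAVA, RSEM 1.3.1, limma and the build mm10 are named, per the submitters' processing notes. Annotation, gene filter, strand use and scaling are not given in the sources used here. The deposited table holds 1 signal value per gene and library with no stated unit. The values have the form of an expected count plus 0.5 reads, scaled to an effective library size. Of values under 10 reads, 91.4% to 98.7% per library came within 0.05 of whole reads after inverting that relation, and no count test was run.

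A gene entered the fit where 2 or more libraries reached a value of 10 (8299 kept, 1997 removed). The fit was made in limma 3.58.1 (R 4.3.3) on the scale of log2(value + 1), which understates changes of low genes. It had 6 group means over 16 libraries and a prior that was trended and robust. Tests were two-sided, with p-values adjusted by Benjamini-Hochberg over all genes in each of 12 comparisons (threshold 0.05). The fit and the permutation test were tested on simulated data. Ratios were compared by exact permutation within strata.

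Members, lists, tests and the naming rule were chosen with earlier results of these data known. By that rule the members, S100a10, S100a11, Fpr1 and Fpr2 are given whatever their result, list genes where they pass (up to 4 of smallest p), and the 5 most alike and 3 most opposite genes per member. Further list genes named with values that did not pass were chosen after their values were seen. The alternatives were other pseudocounts, filters, rescalings, priors and weights, a replicate block, and leaving out libraries.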

Additional observations from a re-analysis of the deposited data

Results flagged for a closer look

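The spleen minus blood difference of Anxa3 was larger in GF than in SPF mice by 3.16 on the log2 scale, a difference between the groups found by the interaction test in limma (adjusted p = 0.0264). GF spleen measured 112, 66.7 and 48.1 against 11.2 and 0 in GF blood, and SPF spleen 15.2, 47.7 and 51.7 against 43.4 and 25.9 in SPF blood.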

How the results depend on the processing

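Anxa3 in lung minus blood and spleen minus blood of GF mice passed in each of 28 alternatives (3.02 to 4.42 and 2.47 to 3.99). Over the results of the members, ratios and named partner genes, 673 of the values under other settings kept their call, 55 lost it, 23 gained it and 6 changed sign. With 1 library left out, 1020 kept it, 116 lost it, 17 gained it and 15 changed sign. Except where a sentence gives one, the cause was not tested. Pseudocount 0.1 took spleen minus blood of Anxa1 in SPF mice past the threshold (-0.73), as did no filter and a limit of 100 (-0.73 each). Pseudocount 5 did so for lung minus spleen of Anxa1 in GF mice (-0.62) and ended the blood GF minus SPF call of Anxa3 (-1.70). Quantile rescaling ended lung minus blood in SPF mice for Anxa1 (-0.47) and Anxa2 (-0.43) and GF minus SPF in blood for Anxa3 (-2.23). It took Anxa1 lung minus spleen in GF (-0.66) and Anxa2 lung minus spleen in SPF mice (-0.63) past the threshold, and turned the sign of Anxa2 spleen minus blood in GF (0.016) and SPF (0.19) and of its interaction (-0.18). Median-ratio rescaling took Anxa1 lung minus spleen in GF (-0.60) and Anxa2 lung minus spleen in SPF (-0.50) past it.

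A plain prior ended Anxa1 lung minus blood in SPF (-0.86), Anxa2 spleen minus blood in SPF (-0.68), Anxa3 GF minus SPF in blood (-2.18) and the Anxa3 spleen minus blood interaction (3.16). Array weights took Anxa3 lung minus blood in SPF (0.93), Anxa1 lung minus spleen in GF (-0.61), Anxa2 lung minus spleen in SPF (-0.54), Anxa1 spleen minus blood in SPF (-0.62) and the Anxa3 lung minus blood interaction (2.80) past it. Voom weights did so for Anxa2 lung minus blood in GF (-0.62), Anxa3 lung minus blood in SPF (0.99), Anxa1 lung minus spleen in GF (-0.62), Anxa1 spleen minus blood in SPF (-0.69) and the Anxa3 lung minus blood interaction (2.38), and ended the Anxa3 spleen minus blood interaction (2.59).

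Libraries with the same replicate number within a microbial status showed no common deviation: of 9 pairs 2 had a correlation over 0.1 (-0.19 to 0.14). The numbers were not taken as pairs. With so few libraries per group this check is weak, and it cannot show that equal numbers came from different mice. With the replicate block as a fixed term Anxa1 lung minus spleen in GF (-0.76) and spleen minus blood in SPF (-0.82) passed and the Anxa3 spleen minus blood interaction did not (3.42); with a random replicate block no call of a member changed.

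Without the 5 libraries under 250000 reads, Anxa2 lung minus blood in GF (-0.76), Anxa3 lung minus blood in SPF (0.88) and Anxa2 lung minus spleen in SPF (-0.62) passed. Anxa2 spleen minus blood in SPF (-0.53), Anxa3 GF minus SPF in blood (-1.48) and the Anxa3 spleen minus blood interaction (1.96) were lost. The sign turned for Anxa1 spleen minus blood in GF (-0.0065), the Anxa3 lung minus spleen interaction (0.18) and the Anxa2 spleen minus blood interaction (-0.026). For the ratios too few rearrangements remained there for any tissue difference to pass, whatever its size, so only sizes are given. Anxa1 to Anxa2 was 0.22 in lung minus blood and 0.35 for GF minus SPF, a call lost with fewer rearrangements. For lung minus blood, lung minus spleen and spleen minus blood, Anxa3 to Anxa1 was 2.68, 0.89 and 1.79. Anxa3 to Anxa2 was 2.90, 0.87 and 2.03.

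Leaving out each library in turn gave these ranges where a call or sign changed. For Anxa1 they were -0.59 to 0.11 in lung minus blood of GF mice, -1.04 to -0.68 in SPF mice, -0.74 to -0.48 in lung minus spleen of GF mice, -0.37 to 0.039 in SPF mice, -0.91 to -0.49 in spleen minus blood of SPF mice and 0.76 to 1.46 in the spleen minus blood interaction. For Anxa2 they were -0.76 to -0.27 in lung minus blood of GF mice, -0.56 to -0.38 in lung minus spleen of SPF mice, -0.80 to -0.57 in spleen minus blood of SPF mice and -0.83 to -0.34 for GF minus SPF in blood. For Anxa3 they were -0.23 to 0.59 in spleen minus blood of SPF mice (-0.064 and -0.14 without spleen SPF replicate 2 or 4), -2.89 to -1.48 for GF minus SPF in blood, and 2.13 to 3.54, -0.63 to 0.14 and 2.45 to 3.86 in the interactions of lung minus blood, lung minus spleen and spleen minus blood. The Anxa1 to Anxa2 ratio ran from 0.20 to 0.33 in lung minus blood, 0.27 to 0.36 for GF minus SPF and -0.10 to 0.044 in lung minus spleen (0.0041, 0.011 and 0.00063 without lung GF replicate 3, lung SPF replicate 1 or 3). Anxa3 to Anxa1 ran from 2.68 to 3.03, 0.82 to 1.08 and 1.71 to 2.06, and Anxa3 to Anxa2 from 2.90 to 3.36, 0.76 to 1.09 and 1.96 to 2.42, in lung minus blood, lung minus spleen and spleen minus blood. For GF minus SPF the latter ran from -0.097 to 0.21 (-0.025, -0.0079, -0.065 and -0.047 without blood SPF replicate 4, spleen GF replicate 1, spleen SPF replicate 1 or lung SPF replicate 1).

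The counts of genes called also moved. With 1 library left out and then under the other settings, the 813 calls of lung minus blood in GF mice became 524 to 1023 and 384 to 1472, and the 1585 in SPF mice 706 to 1859 and 921 to 3139. For lung minus spleen 844 became 556 to 1011 and 365 to 1012 in GF, and 802 became 541 to 988 and 419 to 1143 in SPF mice. For spleen minus blood 73 became 28 to 163 and 44 to 111 in GF, and 586 became 39 to 733 and 129 to 1107 in SPF mice. For GF minus SPF 110 became 2 to 351 and 0 to 842 in blood, 27 became 10 to 219 and 3 to 59 in spleen, and 2 became 0 to 5 and 0 to 6 in lung. For the interactions of lung minus blood, lung minus spleen and spleen minus blood, 1 became 1 to 28 and 0 to 101, 1 became 0 to 48 and 0 to 34, and 63 became 2 to 204 and 0 to 146. Depth limits Anxa3 most, since 8 of the 16 libraries held fewer than 30 of its reads.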
